A study of Homo sapiens with 16 samples.

Results

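The DNA replication and nucleotide synthesis genes described here were 39 genes of the replication fork and of deoxynucleotide supply, chosen by name among 26156 gene names with signal in the deposited tables. All 39 passed the filter on low values (TPM, length-scaled transcript abundance, of 1 or more in 2 or more libraries) that left 15958 genes for testing. The cells were A549, an established human lung adenocarcinoma line, and in all groups they overexpressed CD63-Nluc, in which CD63, a membrane protein of exosomes, is joined to a luciferase. They received DMSO, the solvent, or a compound with the code name 5G6, 6D7 or 7F8, and polyA RNA was sequenced after 4 h or 48 h. A dose of 4 µM stands in each label, that of DMSO too, and each of the 8 groups held 2 replicates, 16 libraries in all. The labels do not say whether the CD63-Nluc cells were 1 clone or a pool, and the compounds' structures were not given. The title of the series concerns release of exosomes through AMPK and SREBPs.

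Before S phase, the origin recognition complex (ORC), CDC6 and CDT1 load the ring of MCM2 to MCM7 onto DNA, a step called licensing. CDC45 and the GINS complex then join the ring to form the active helicase, which unwinds DNA while RPA coats the single strands. DNA polymerase alpha with primase starts each strand, polymerases epsilon and delta extend it, PCNA loaded by RFC holds the polymerases on DNA, and FEN1 and LIG1 join the fragments of the lagging strand. Ribonucleotide reductase, thymidylate synthase and thymidine kinase supply the deoxynucleotides. Many of these genes are transcribed in late G1 and S phase from promoters bound by E2F factors, which the retinoblastoma protein RB restrains.

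The promoters of 33 of the 39 genes matched RefSeq's table (GRCh38.p14), each window running from 250 bases before to 50 after a transcript start. The E2F words searched, on both strands, were TTTCCCGC, TTTCGCGC, TTTGCCGC and TTTGGCGC, and a gene counted where any of its listed starts held one. A word was present in 17 of the 33 genes (51.5%), against 3.99% of 27305 genes in the table and 6.52% of the 11264 tested genes that matched it. By role, the share was 7 of 8 matched helicase genes, 2 of 5 licensing genes, 4 of 8 polymerase genes, 3 of 7 clamp and ligation genes, 0 of 1 RPA gene and 1 of 4 nucleotide genes. Of 23 words, overlapping ones included, 15 began within 60 bases of the start nearest to the gene's 5′ end in the deposited tables.

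Windows of MCM6, GINS2, CDT1, PCNA and RRM2 are shown, cut at 10 bases after the start, because the genes had among the smallest p-values of their roles at 48 h and their promoters differ in these words. Capitals mark E2F words, in either orientation, and overlapping words run together. MCM6 (chr2:135876434-135876693, - strand) holds 2 blocks in which words of both orientations overlap, 4 words in all. GINS2 (chr16:85688945-85689204, - strand), CDT1 (chr16:88803539-88803798, + strand) and PCNA (chr20:5126613-5126872, - strand) hold 1 word each. RRM2 (chr2:10122318-10122577, + strand) holds none of these letters in its window.
MCM6: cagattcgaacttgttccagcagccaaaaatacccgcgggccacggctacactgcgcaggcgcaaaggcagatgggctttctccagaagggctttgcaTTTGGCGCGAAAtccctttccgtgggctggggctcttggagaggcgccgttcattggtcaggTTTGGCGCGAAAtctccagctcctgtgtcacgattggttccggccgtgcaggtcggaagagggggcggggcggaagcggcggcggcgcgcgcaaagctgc
GINS2: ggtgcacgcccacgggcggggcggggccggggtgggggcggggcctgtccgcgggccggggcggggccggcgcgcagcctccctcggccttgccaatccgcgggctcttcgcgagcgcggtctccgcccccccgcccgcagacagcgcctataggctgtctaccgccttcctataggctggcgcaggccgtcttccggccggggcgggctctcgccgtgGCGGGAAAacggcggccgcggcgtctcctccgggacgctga
CDT1: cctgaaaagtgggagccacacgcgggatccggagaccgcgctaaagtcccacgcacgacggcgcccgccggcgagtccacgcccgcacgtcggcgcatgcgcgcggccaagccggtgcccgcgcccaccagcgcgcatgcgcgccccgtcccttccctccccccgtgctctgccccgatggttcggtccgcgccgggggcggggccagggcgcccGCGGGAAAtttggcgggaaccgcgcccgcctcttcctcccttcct
PCNA: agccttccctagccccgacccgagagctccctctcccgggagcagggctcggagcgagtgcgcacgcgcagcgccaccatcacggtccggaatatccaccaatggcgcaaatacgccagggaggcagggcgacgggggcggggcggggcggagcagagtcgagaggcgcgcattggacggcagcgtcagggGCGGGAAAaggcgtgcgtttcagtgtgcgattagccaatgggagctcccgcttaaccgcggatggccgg
RRM2: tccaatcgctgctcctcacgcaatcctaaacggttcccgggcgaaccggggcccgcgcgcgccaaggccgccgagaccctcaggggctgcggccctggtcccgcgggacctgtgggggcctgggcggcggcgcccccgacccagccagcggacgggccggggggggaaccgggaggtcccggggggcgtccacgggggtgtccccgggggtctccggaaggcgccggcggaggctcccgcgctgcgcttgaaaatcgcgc

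The libraries held 6.10 to 8.86 gigabases of aligned sequence and 13378 to 14909 genes at TPM of at least 1. Mitochondrial genes took 6.13 and 6.48% of TPM in the 6D7 libraries at 48 h and 18.9 to 32.5% in the other 14, so they were removed and TPM was rescaled before any comparison. CDKN2A, which is deleted in A549, was listed at 0 in all 16 libraries. The summed TPM of 10 A549 epithelial markers was 23657 and 27085 in DMSO at 48 h, 16016 and 20109 with 5G6, 7866 and 20887 with 6D7, and 11497 and 13848 with 7F8. The sum leans on ALDH1A1 (7708 and 8882 in DMSO) and AKR1B10 (5286 and 5611), the highest of these genes. Both compound libraries lay below both DMSO libraries in 5, 5 and 6 of the 10 with 5G6, 6D7 and 7F8. They lay above both in 2, 1 and 0. Of those 10 markers at 48 h, KRT19 was called higher with 5G6 and 6D7. ALDH1A1 was called lower with 6D7, and AKR1B10, EPCAM and KRT18 with 7F8. With the compounds that gave no call, both libraries of ALDH1A1, AKR1B10 and EPCAM also lay below both DMSO libraries, while those of KRT18 did not. Summed immune, endothelial and fibroblast markers reached at most 11.8, 0.70 and 21.0 TPM in any library. The part of these marker differences in the results below was not tested.

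At 4 h no call was made. No gene of the 39 was called with any compound, and none of the 15958 tested genes was either (0% each; limma, Benjamini-Hochberg adjusted p below 0.05 within a comparison). At an unadjusted p below 0.05, 1 of the 39 was lower with 5G6 (RPA2), 0 with 6D7 and 3 with 7F8 (MCM3, GINS3 and POLE2), against 0.295, 0.232 and 3.79% of all genes that were lower. The median log2 fold change of the 39 was -0.16 with 5G6, -0.20 with 6D7 and -0.39 with 7F8, on the log2(TPM + 1) scale used throughout, where the medians of all genes were 0.11, 0.01 and -0.11. Scaling by median of ratios, with the medians of all genes within 0.02 of 0, gave -0.30, -0.22 and -0.28. The fold change at 4 h was below 0 in 30, 38 and 37 of the 39 genes, against 5380, 7691 and 10312 of all 15958 genes. Both libraries lay below both DMSO libraries in 6, 12 and 23 of the 39 genes (15.4, 30.8 and 59.0%), against 7.9, 9.49 and 23.4% of all genes. A p that misses the threshold does not show that the levels were equal to DMSO.

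After 48 h all 39 genes stood lower than DMSO with each compound. They were called lower in 28 of 39 with 5G6, 35 with 6D7 and 37 with 7F8, and 0 were called higher, where 2.11, 3.58 and 6.5% of all tested genes were called lower. The median log2 fold change was -1.61, -1.98 and -2.01 (all genes -0.07, -0.06 and -0.18), and the median share of the DMSO level that was left was 31.0, 24.8 and 22.4%. In each comparison, all 39 had both compound libraries below both DMSO libraries, which held for 28.7, 27.1 and 38.7% of all genes. The same 2 DMSO libraries serve all 3 comparisons, so these are not independent of each other. In RNA from whole cultures, fewer cells in S phase and less RNA per cell cannot be told apart.

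**Figure D1:**
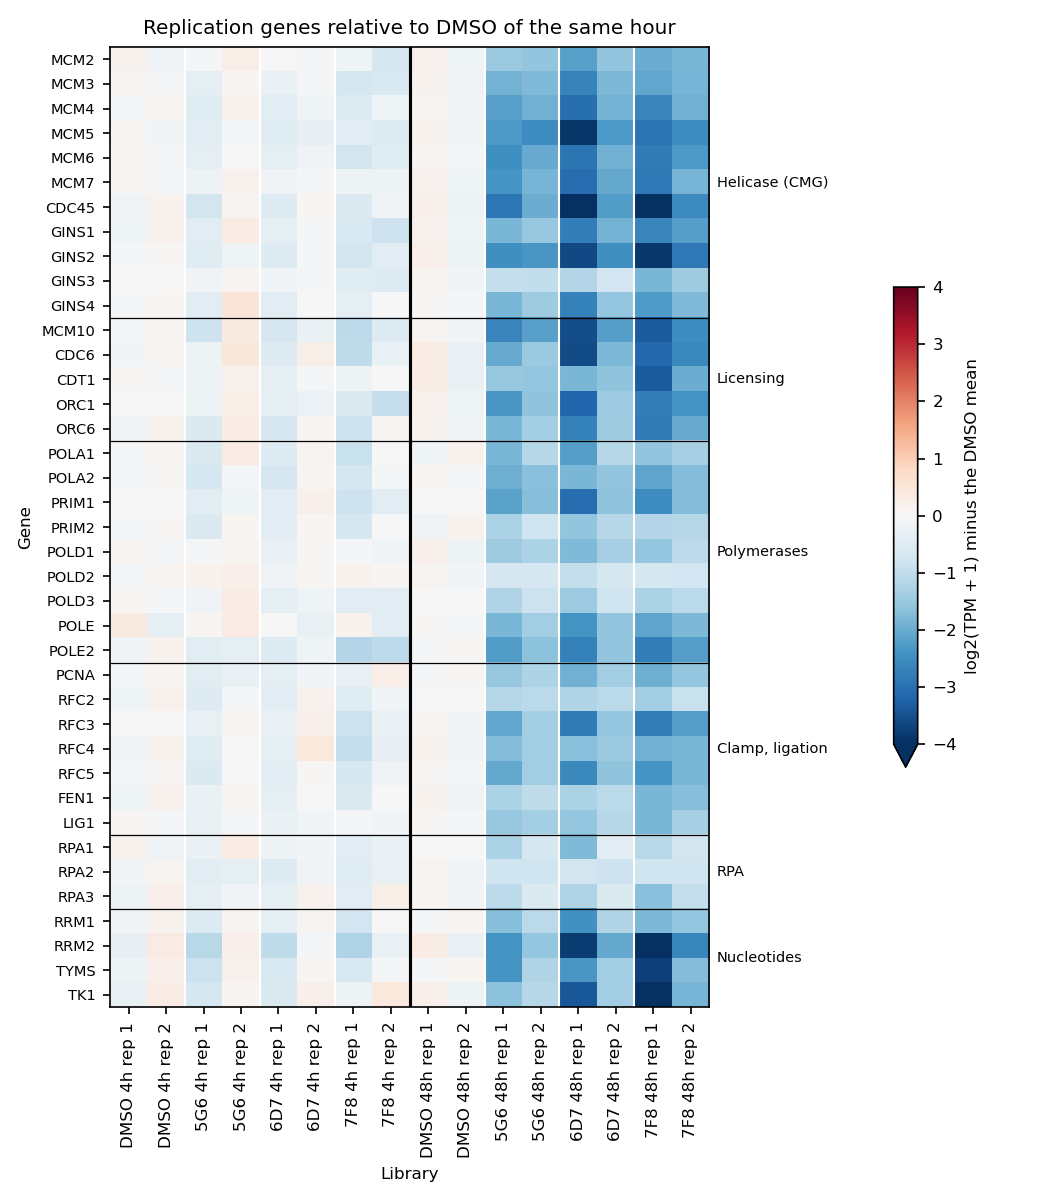
Each row is 1 of the 39 genes, ordered by role, and each column 1 of the 16 libraries; colour gives log2(TPM + 1) minus the mean of the 2 DMSO libraries of the same hour, with values below -4 drawn at -4. At 48 h every compound library is blue in every gene, at 4 h the medians are -0.16, -0.20 and -0.39, and the RPA and POLD2 rows are among the palest at 48 h.

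The number of calls at 48 h changed when single libraries were left out. Without DMSO replicate 1 the counts of called genes were 0 (5G6), 0 (6D7) and 9 (7F8), and without DMSO replicate 2 they were 10 with 5G6 and 22 with 6D7. Leaving out 5G6 replicate 1 or 2 gave 0 or 3, leaving out 6D7 replicate 1 gave 9, and leaving out 7F8 replicate 1 gave 10. In these fits the lone library is assumed to vary like the other groups. With the 48 h libraries alone, the counts were 0, 0 and 20. The share of all genes called in that fit and in those above is not given here. Scaling by median of ratios, which sets the medians of all genes at 0.01, 0.01 and 0.00, gave 23, 34 and 32 called lower and gene medians of -1.53, -1.90 and -1.81, a shift of 0.18 in the median of all genes for 7F8. The calls lost were those of CDT1, FEN1, POLD2, RFC2 and RPA2 with 5G6, RPA2 with 6D7, and POLD2, PRIM2, RFC2, RPA2 and RPA3 with 7F8. That scaling called 211 of all genes lower and 365 higher with 5G6, 477 and 451 with 6D7, and 579 and 553 with 7F8, where the main scaling gave 337 and 311, 572 and 381, and 1038 and 365.

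Every helicase gene stood lower than DMSO with each compound at 48 h. Of 11, 10 were called lower with 5G6 (all but CDC45) and 11 with 6D7 and 7F8, with median log2 fold changes of -2.05, -2.41 and -2.35. Added over MCM2 to MCM7, the 6 subunits of the ring, TPM with 5G6, 6D7 and 7F8 was 23.8, 18.7 and 20.2% of that in DMSO. MCM6 (chr2:135839626-135876443, - strand in GRCh38, as the files give it) is a subunit of that ring. At 48 h its TPM was 84.4 and 74.2 in DMSO, 13.5 and 18.8 with 5G6, 9.65 and 20.4 with 6D7 and 10.7 and 15.1 with 7F8. At 4 h it was 75.2 and 71.8 in DMSO, 55.2 and 74.3 with 5G6, 55.8 and 66.2 with 6D7 and 43.7 and 51.9 with 7F8. The 6 compound libraries at 48 h were thus the lowest of the 16, and the groups at that hour did not overlap with DMSO. The log2 fold changes at 48 h were -2.24, -2.41 and -2.55 (SE 0.31 each, n = 2 per group; limma adjusted p 0.00708, 0.00422 and 0.00205).

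GINS2 (chr16:85676198-85688954, - strand) encodes a subunit of the GINS complex. Its TPM at 4 h was 40.7 and 44.1 in DMSO, 30.2 and 37.6 with 5G6, 29.2 and 40.9 with 6D7 and 25.1 and 31.7 with 7F8. At 48 h it was 46.4 and 34.5 in DMSO, 6.53 and 7.20 with 5G6, 2.37 and 6.56 with 6D7 and 1.81 and 4.72 with 7F8. With 7F8 it was the gene with the smallest share left of the 39, 8.06% of DMSO, and its log2 fold changes were -2.38, -3.02 and -3.36 (limma adjusted p 0.0106, 0.00436 and 0.00205). CDC45, the partner that completes the active helicase, was the lowest with 6D7, at 1.04 and 7.88 TPM against 46.4 and 35.4 in DMSO. The log2 fold changes of CDC45 were -2.44, -3.29 and -3.37, and the first of these was not called (limma adjusted p 0.0626, 0.0169 and 0.0123). GINS3, another GINS subunit, had the smallest change of the role with 7F8, at 24.3 and 20.7 TPM in DMSO, 11.2 and 10.8 with 5G6, 9.47 and 12.7 with 6D7 and 5.54 and 7.76 with 7F8. Its log2 fold changes of -0.96, -0.97 and -1.63 were all called (limma adjusted p 0.0299, 0.0240 and 0.00258). GINS2 shares 9 bases with the gene GSE1 on the other strand, and strandedness was not stated, so reads there cannot be told apart.

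The order of the ring subunits, which TPM allows because it is per length, also differed between groups. MCM7 was the highest of the 6 in all 16 libraries. MCM2 was the lowest in 4 of 4 DMSO libraries, while MCM5 was the lowest in 5 of 6 compound libraries at 48 h and in 0 of the other 10. At 48 h MCM5 stood at 95.3 and 79.2 TPM in DMSO, 16.7 and 14.5 with 5G6, 4.98 and 17.0 with 6D7 and 10.3 and 14.5 with 7F8, and MCM2 at 71.4 and 56.8, 22.3 and 20.5, 13.2 and 20.6 and 15.2 and 17.2. The log2 fold changes were -2.41, -3.08 and -2.73 for MCM5 and -1.53, -1.88 and -1.91 for MCM2. The difference between these 2 genes was not tested.

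The licensing genes were counted with MCM10, which helps to activate the loaded helicase. Of 5, 3 were called lower with 5G6 (2 with median-of-ratios scaling) and 5 with 6D7 and with 7F8, at medians of -1.76, -2.31 and -2.66. CDT1 (chr16:88803789-88809258, + strand), the loader of the ring, had 41.8 and 26.8 TPM in DMSO, 11.1 and 10.8 with 5G6, 8.81 and 10.3 with 6D7 and 2.40 and 7.75 with 7F8 at 48 h. At 4 h CDT1 was 34.7 and 32.0 in DMSO, 28.9 and 37.3 with 5G6, 25.7 and 32.1 with 6D7 and 28.6 and 33.8 with 7F8. The 2 DMSO libraries at 48 h were wide apart but both lay above every compound library of that hour, and its log2 fold changes were -1.53, -1.71 and -2.66 (limma adjusted p 0.0398, 0.0214 and 0.00313). MCM10 had 26.0 and 22.6 TPM in DMSO, 3.02 and 4.62 with 5G6, 1.16 and 4.54 with 6D7 and 1.54 and 3.53 with 7F8, and with 5G6 it kept the smallest share of the 39, 15.7%. Its log2 fold changes were -2.41, -2.87 and -2.90 (limma adjusted p 0.0199, 0.0104 and 0.00642).

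ORC6, a subunit of the origin recognition complex, had 55.6 and 44.8 TPM in DMSO at 48 h, 13.3 and 19.0 with 5G6, 6.90 and 17.97 with 6D7 and 6.13 and 11.6 with 7F8. It was called lower with 6D7 and 7F8 and not with 5G6 (log2 fold changes -1.59, -2.06 and -2.43; limma adjusted p 0.0900, 0.0300 and 0.0125). CDC6, which works with CDT1, showed the same calls, with log2 fold changes of -1.76, -2.68 and -2.87 and adjusted p of 0.0843, 0.0152 and 0.00915 (limma). In the compound groups of ORC6, replicate 2 stood above replicate 1 at both hours, as in most of the 39. Replicate 2 was the higher in 39, 37 and 30 of the 39 genes at 4 h and in 35, 38 and 38 at 48 h with 5G6, 6D7 and 7F8. In DMSO it was the higher in 25 genes at 4 h and in 7 at 48 h. Over all tested genes, replicate 2 was the higher in 55.6, 39.002 and 40.1% at 4 h and in 64.9, 59.8 and 61.8% at 48 h with the same compounds, and in 34.9 and 63.9% in DMSO.

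**Figure D2:**
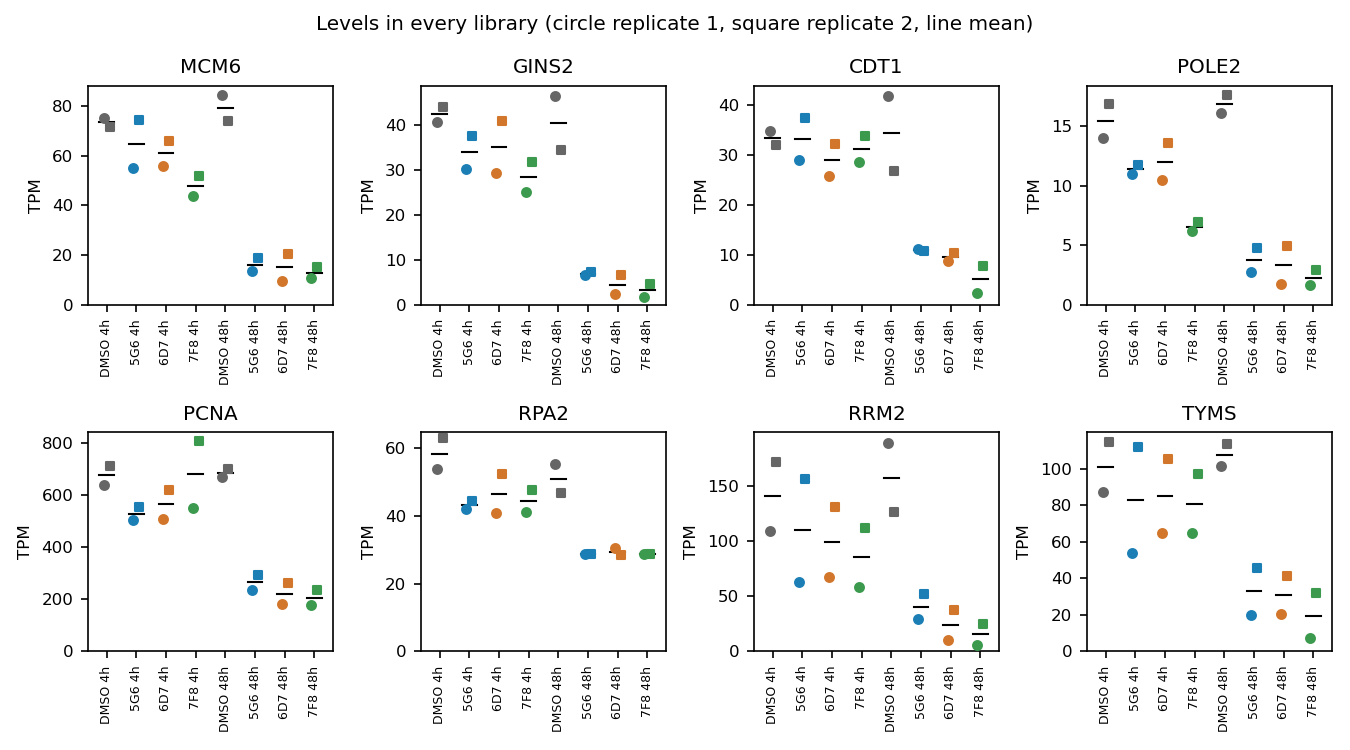
TPM (vertical axis, from 0) of 8 genes in every library, grouped by treatment and hour along the horizontal axis; circles are replicate 1, squares replicate 2 and lines the mean of the 2. In each panel the 6 compound libraries at 48 h lie below both DMSO libraries of that hour, and in RRM2 and TYMS the 2 replicates stand far apart.

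The polymerase genes had smaller median changes than the helicase genes. Of 9, 7, 9 and 8 were called lower with 5G6, 6D7 and 7F8, at medians of -1.49, -1.68 and -1.45. POLE2 (chr14:49643552-49688417, - strand), an accessory subunit of polymerase epsilon, had 16.1 and 17.6 TPM in DMSO, 2.76 and 4.77 with 5G6, 1.74 and 4.94 with 6D7 and 1.65 and 2.88 with 7F8 at 48 h. At 4 h it was 13.99 and 16.9 in DMSO, 11.0 and 11.8 with 5G6, 10.5 and 13.6 with 6D7 and 6.18 and 6.93 with 7F8, so the 7F8 libraries were the lowest of that hour. At 4 h the log2 fold change of POLE2 with 7F8, -1.12, was the largest fall of the 39 but was not called (limma adjusted p 0.808). At 48 h its log2 fold changes were -1.94, -2.15 and -2.48 (limma adjusted p 0.0152, 0.00964 and 0.00374).

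POLA2, the regulatory subunit of polymerase alpha, had 30.8 and 27.9 TPM in DMSO, 6.91 and 8.44 with 5G6, 7.46 and 9.22 with 6D7 and 6.07 and 8.08 with 7F8 at 48 h (log2 fold changes -1.81, -1.71 and -1.92; limma adjusted p 0.0119, 0.0125 and 0.00598). POLA1, the catalytic subunit of the same enzyme, had 15.2 and 19.2 in DMSO, 4.14 and 7.14 with 5G6, 2.93 and 7.14 with 6D7 and 5.06 and 6.26 with 7F8, and was called with 6D7 alone (limma adjusted p 0.0811, 0.0436 and 0.0589). The smallest change of the role was that of POLD2, an accessory subunit of polymerase delta. It had 166 and 141 TPM in DMSO, 94.8 and 95.4 with 5G6, 79.1 and 93.5 with 6D7 and 93.2 and 89.9 with 7F8. Its compound replicates lay close together, and its changes of -0.68, -0.82 and -0.73 were called with all 3 compounds (limma adjusted p 0.0318, 0.0134 and 0.0148). With 5G6 and 7F8 POLD2 also kept the largest share of the DMSO level of the 39, 62.0 and 59.7%.

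All 7 clamp, clamp loader, flap nuclease and ligase genes were called lower with each compound, at medians of -1.43, -1.58 and -1.76. PCNA (chr20:5114953-5126622, - strand), the sliding clamp, was the highest of the 39 genes in DMSO at 48 h. Its TPM at 48 h was 669 and 699 in DMSO, 236 and 293 with 5G6, 181 and 261 with 6D7 and 177 and 234 with 7F8. At 4 h PCNA was 636 and 712 in DMSO, 504 and 552 with 5G6, 509 and 618 with 6D7 and 548.7 and 807 with 7F8. With 7F8 the 4 h values lay on either side of DMSO, whereas all 6 compound libraries at 48 h lay under both DMSO libraries (log2 fold changes -1.37, -1.65 and -1.75; limma adjusted p 0.0117, 0.00514 and 0.00297). LIG1, the ligase that seals the lagging strand, had 54.5 and 51.1 TPM in DMSO, 17.7 and 20.1 with 5G6, 17.4 and 23.4 with 6D7 and 14.1 and 20.3 with 7F8 at 48 h (log2 fold changes -1.43, -1.34 and -1.58; limma adjusted p 0.00788, 0.00821 and 0.00279). RFC2, a subunit of the clamp loader, changed least in the role with 7F8, at 67.4 and 64.9 in DMSO, 29.7 and 31.0 with 5G6, 27.9 and 30.6 with 6D7 and 24.8 and 35.2 with 7F8. It was called lower with each compound (log2 fold changes -1.10, -1.15 and -1.14; limma adjusted p 0.0347, 0.0235 and 0.0185). FEN1, which trims the flaps, had log2 fold changes of -1.15, -1.16 and -1.76, all called.

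RPA, the single-strand binding complex, showed the smallest median of the roles. Of its 3 genes, 1 was called lower with 5G6, 1 with 6D7 and 2 with 7F8, at medians of -0.81, -0.88 and -0.92. At 4 h RPA2 had 53.9 and 62.9 TPM in DMSO, 42.1 and 44.3 with 5G6, 40.8 and 52.4 with 6D7 and 41.1 and 47.5 with 7F8, with no call. Both compound libraries lay below both DMSO libraries at that hour in 1, 1 and 2 of the 3 RPA genes. At 48 h RPA2 had 55.4 and 46.7 TPM in DMSO, 28.7 and 28.7 with 5G6, 30.4 and 28.3 with 6D7 and 28.6 and 28.7 with 7F8. Its 6 compound values at 48 h were nearly equal, and the log2 fold changes of -0.80, -0.77 and -0.81 were all called (limma adjusted p 0.0310, 0.0300 and 0.0186). With median-of-ratios scaling no RPA gene was called with any compound, and the adjusted p of RPA2 was 0.124, 0.109 and 0.156 (limma). RPA1 had 73.1 and 75.2 in DMSO, 30.3 and 44.8 with 5G6, 21.2 and 55.3 with 6D7 and 33.9 and 44.0 with 7F8. It was the single gene of the 39 called with no compound (log2 fold changes -0.99, -1.09 and -0.92; limma adjusted p 0.161, 0.105 and 0.141), its compound replicates differing more than those of RPA2. RPA3 had 50.8 and 44.4 in DMSO, 22.5 and 31.5 with 5G6, 20.1 and 31.8 with 6D7 and 14.3 and 24.0 with 7F8, and was called with 7F8 alone (limma adjusted p 0.206, 0.145 and 0.0304). RPA3 overlaps UMAD1 on the other strand over 77972 bases, and reads of the 2 genes cannot be told apart where strand is not stated.

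The nucleotide genes stood low with each compound, with widely spaced replicates, a spacing that the main fit counts as error. Of 4, 0 were called with 5G6, 2 with 6D7 (RRM1 and RRM2) and 4 with 7F8, at medians of -1.60, -2.11 and -2.87. RRM2 (chr2:10122568-10131419, + strand), the S phase subunit of ribonucleotide reductase, had 189.9 and 126 TPM in DMSO, 28.9 and 52.4 with 5G6, 10.3 and 37.1 with 6D7 and 5.97 and 24.8 with 7F8 at 48 h. At 4 h RRM2 was 109 and 172 in DMSO, 63.4 and 157 with 5G6, 67.2 and 131 with 6D7 and 58.6 and 112 with 7F8. Replicate 2 was the higher in all groups but DMSO at 48 h, and the ratio between replicates was widest with 7F8 at 48 h. The log2 fold changes at 48 h were -1.96, -2.91 and -3.54 (SE 0.71 each; limma adjusted p 0.156, 0.0365 and 0.0135).

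TYMS, the thymidylate synthase, had 101.3 and 114 TPM in DMSO, 20.0 and 45.6 with 5G6, 20.6 and 41.3 with 6D7 and 7.07 and 31.8 with 7F8 at 48 h. It was called with 7F8 alone (log2 fold changes -1.79, -1.84 and -2.74; limma adjusted p 0.133, 0.101 and 0.0190). TYMS overlaps ENOSF1 on the other strand by 3261 bases, and reads there cannot be told apart. TK1, the thymidine kinase of the salvage route, had 246 and 189 in DMSO, 67.8 and 96.8 with 5G6, 19.7 and 82.2 with 6D7 and 11.3 and 59.0 with 7F8, and was also called with 7F8 alone (limma adjusted p 0.317, 0.0729 and 0.0240). TK1 likewise overlaps the expressed gene AFMID on the other strand. RRM1, the large reductase subunit, had 99.0 and 105 in DMSO, 30.8 and 48.0 with 5G6, 18.4 and 43.9 with 6D7 and 28.7 and 33.9 with 7F8 (log2 fold changes -1.38, -1.80 and -1.68; limma adjusted p 0.0736, 0.0226 and 0.0224). Its change was the smallest of the 4 with each compound.

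**Figure D3:**
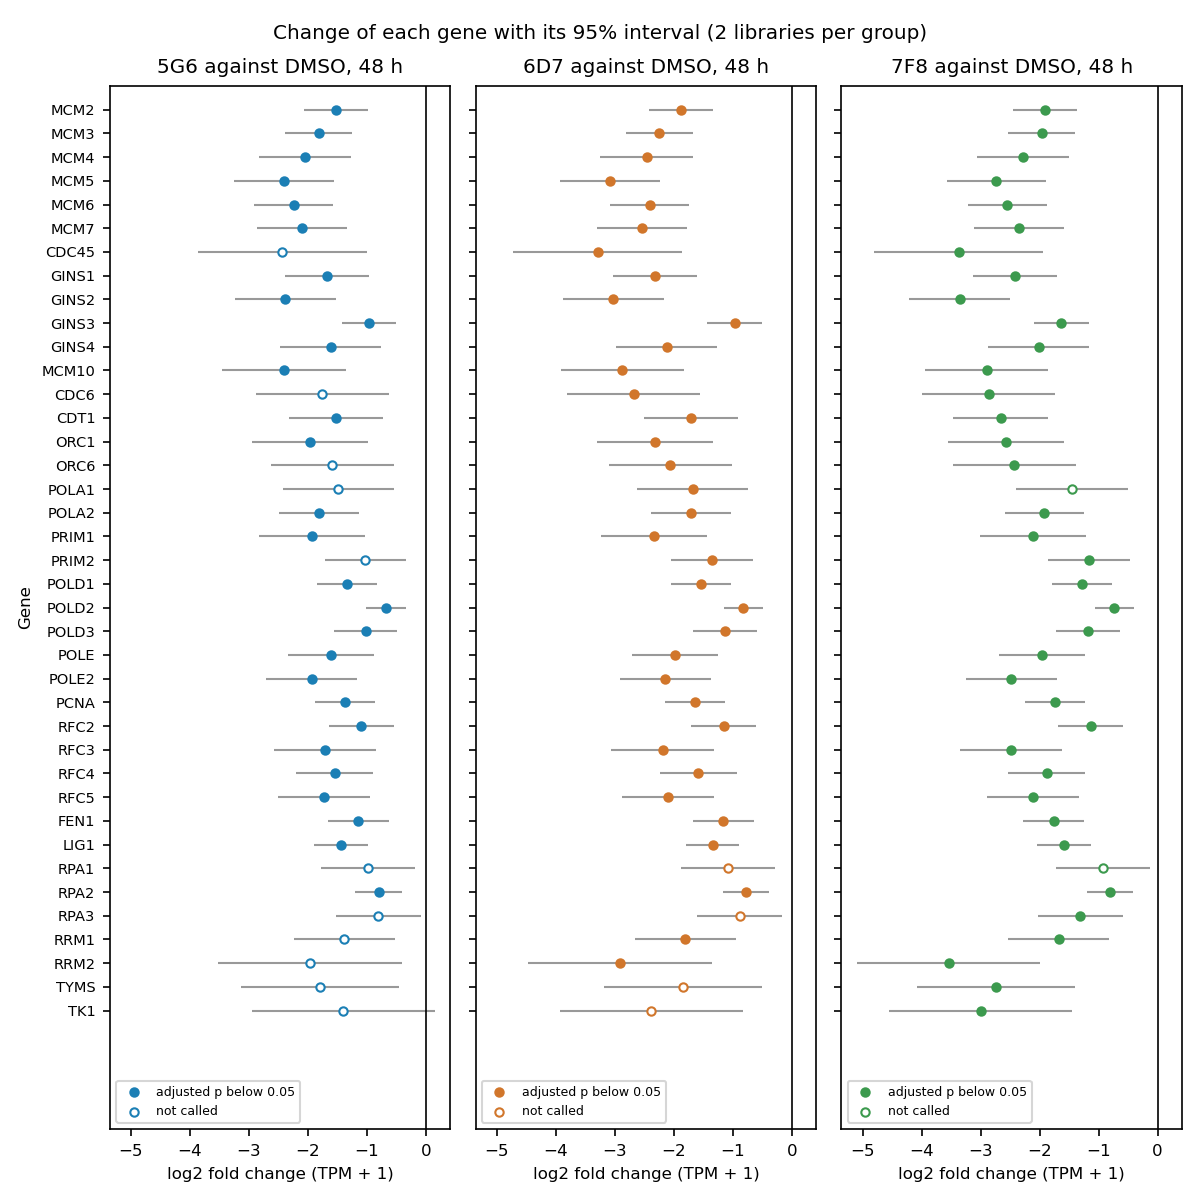
Log2 fold change (horizontal axis, log2 of TPM + 1) of each of the 39 genes at 48 h, 1 panel per compound, with lines for the 95% interval from the limma fit; filled points were called at an adjusted p below 0.05 and open points were not. All points lie left of 0, with 28, 35 and 37 filled, and the open ones include RPA1 in each panel and TK1 and TYMS with 5G6 and 6D7.

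Counted over compounds, 28 of the 39 genes were called with all 3, 6 with 2, 4 with 1 and 1 with none. Genes with and without an E2F word in their windows were set side by side, with no test. With 5G6 the 17 with a word had a median log2 fold change of -1.71 and the 16 without it -1.47. With 6D7 the medians were -1.98 and -1.93, and with 7F8 -2.35 and -1.99. RRM2, whose printed window holds no such word, had the largest fall of the 33 with 7F8.

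The compounds were compared with each other in 3 pairs at each hour. At 4 h no gene of the 39 was called in any pair, where 0, 0.00627 and 0% of all genes were called (5G6 with 6D7, 5G6 with 7F8 and 6D7 with 7F8). At 48 h again none of the 39 was called in any pair, against 0.00627% of all genes between 5G6 and 6D7, 0.288% between 5G6 and 7F8 and 0.489% between 6D7 and 7F8. At an unadjusted p below 0.05 there were 0 genes between 5G6 and 6D7, 7 between 5G6 and 7F8 (GINS1, GINS2, GINS3, CDT1, FEN1, RRM2 and TK1, all higher with 5G6) and 3 between 6D7 and 7F8 (GINS3, CDT1 and FEN1, all higher with 6D7), where 2.13, 9.11 and 12.7% of all genes passed. For CDT1 the level with 5G6 exceeded that with 7F8 by 1.13 on the log2 scale (95% interval 0.33 to 1.93; limma adjusted p 0.288). For MCM6 the same difference was 0.30 (-0.37 to 0.98), and for RRM2 it was 1.58 (0.02 to 3.13). A p that misses the threshold does not show that the compounds act alike. The median of the 39 genes was higher by 0.34 with 5G6 than with 6D7, by 0.37 with 5G6 than with 7F8 and by 0.08 with 6D7 than with 7F8, where the medians of all genes were 0.00, 0.10 and 0.11. With mitochondrial genes kept in TPM the first of these was -0.03, without 6D7 replicate 1 it was -0.11, and the third was -0.33 without 6D7 replicate 2, so neither direction held under all of these alternatives.

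The change between hours was tested as the difference from DMSO at 48 h less that at 4 h, for each compound. None of the 39 was called with any compound, where 0, 0 and 0.00627% of all genes were called. At an unadjusted p below 0.05, 30, 34 and 34 of the 39 were lower, against 5.49, 5.12 and 5.4% of all genes, and the smallest adjusted p was 0.460, 0.287 and 0.231 (limma). The median difference was -1.45, -1.81 and -1.70. In DMSO itself, 0 of the 39 was called between 48 h and 4 h, 0 passed an unadjusted p below 0.05 (2.35% of all genes did), and the median was 0.14 (all genes 0.17). The count for 6D7 changed when its replicate 2 at 48 h was left out, which leaves replicate 1 alone in that group. The summed TPM of the 39 was 709 in that replicate 1 and 1209 in replicate 2.

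Of 39 other replication genes, 15, 24 and 26 were called lower with 5G6, 6D7 and 7F8 and 0 higher, while 24, 15 and 13 were not called, at medians of -1.29, -1.27 and -1.52. The change was above 0 in 2, 1 and 3 of them, at most 0.55, 0.37 and 0.25. Both compound libraries lay above both DMSO libraries in 1, 1 and 0. UHRF1, which reads newly copied DNA for its methylation, fell from 67.7 TPM in DMSO to 14.2, 8.06 and 7.81 (log2 fold changes -2.11, -2.98 and -2.92; limma adjusted p 0.0165, 0.00436 and 0.00312). CHAF1A, a subunit of the chromatin assembly factor that follows the fork, changed by -1.78, -2.34 and -2.39 and DNMT1, the maintenance methyltransferase, by -1.39, -1.44 and -1.44, all called. Of 29 tested other nucleotide genes of 30 listed, 5, 9 and 11 were called lower (3, 9 and 6 with median-of-ratios scaling), 24, 20 and 18 were not called, and the medians were -0.71, -0.79 and -0.89. With 6D7, 6 of the 29 had a change above 0. NME1, a nucleoside diphosphate kinase, changed by -1.16, -1.03 and -1.41 and DTYMK, the thymidylate kinase, by -1.03, -1.33 and -1.80, all called. RRM2B, the reductase subunit that p53 induces, was not called, with -0.12, 0.37 and -0.28 (limma adjusted p 0.892, 0.543 and 0.644).

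Among 33 tested genes of the E2F, RB and G1 list (35 listed), 6, 13 and 14 were called lower and 0, 1 and 0 higher. E2F1, an activating E2F factor, fell with 6D7 and 7F8 (log2 fold changes -1.76, -2.43 and -2.64; limma adjusted p 0.0671, 0.0166 and 0.00974, the first not called). CCND3, a D-type cyclin, changed by -1.83, -2.21 and -2.30, CDC25A, a phosphatase that activates cyclin-dependent kinases, by -1.78, -2.01 and -2.22, and E2F8, a repressing E2F factor, by -1.998, -2.39 and -2.82, all called. CDKN1A, the inhibitor p21, was called higher with 6D7 alone (log2 fold changes 0.92, 1.61 and 0.65; limma adjusted p 0.215, 0.0328 and 0.330). Its TPM at 48 h was 158 and 168 in DMSO, 347 and 276 with 5G6, 806 and 309 with 6D7 and 289 and 226 with 7F8. Both libraries of each compound thus lay above both DMSO libraries, and the 6D7 replicates stood far apart. CCNE2, an E-type cyclin, was not called, with log2 fold changes of -1.15, -1.36 and -1.31 (limma adjusted p 0.144, 0.0725 and 0.0668). RB1 was not called either, with -0.14, 0.11 and -0.29 (limma adjusted p 0.854, 0.872 and 0.580).

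Genes of mitosis had medians near or below those of the replication genes, with larger errors. Of 30, 0, 17 and 25 were called lower with 5G6, 6D7 and 7F8, at medians of -1.56, -2.35 and -2.80. The median SE of a fold change was 0.64 in this list and 0.35 among the 39 replication genes, and with 5G6 their medians of -1.56 and -1.61 stood beside 0 of 30 and 28 of 39 calls. At an unadjusted p below 0.05, 23 of the 30 were lower with 5G6, and 11% of all genes were. CDC20, an activator of the anaphase complex, had log2 fold changes of -2.05, -3.14 and -3.32 (limma adjusted p 0.0799, 0.0140 and 0.00878). MKI67, the proliferation marker Ki-67, had -1.81, -2.63 and -3.28 (limma adjusted p 0.160, 0.0410 and 0.0138). Replicate 2 was the higher in all 30 mitosis genes with each compound at 48 h, with median gaps of 0.96, 1.89 and 1.64 on the log2 scale, and in 21 of 30 in DMSO. The main fit has no replicate block and counts such gaps as error. In the 25 matched promoters of this list, 3 held an E2F word and 20 held TTTGAA or TTCGAA (80.0%), the letters of the CHR element. Those 2 CHR words were in 19.5% of all genes in the table and in 2 of the 33 matched replication genes. Of 20 repair genes, 3, 7 and 10 were called lower, among them FANCD2, which marks stalled forks, at -1.74, -2.55 and -2.73.

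**Figure D4:**
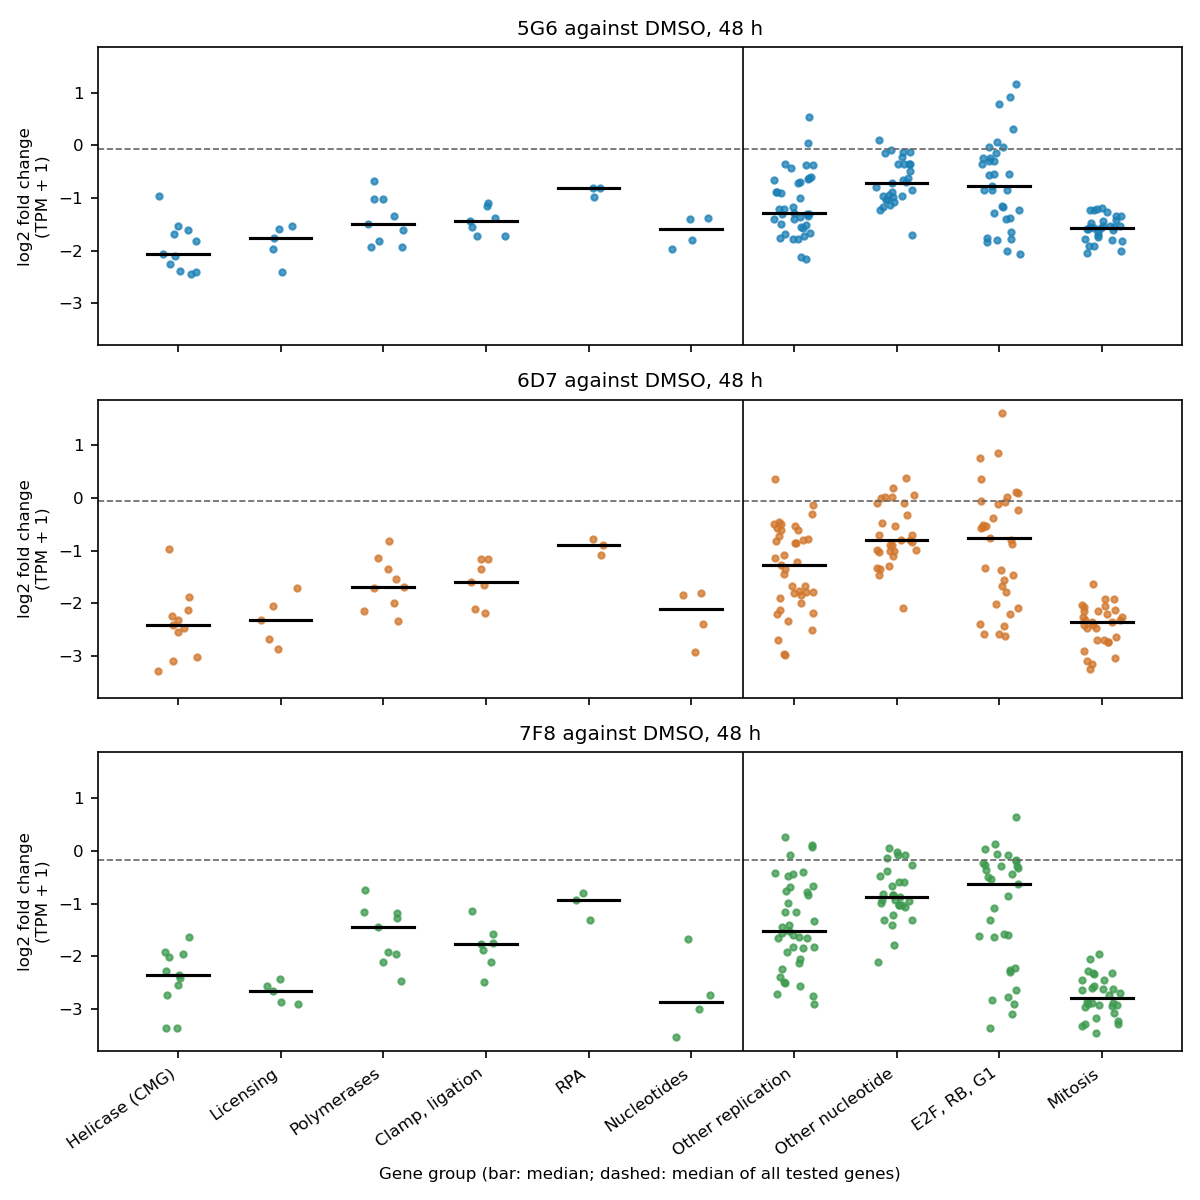
Log2 fold changes at 48 h (vertical axis, log2 of TPM + 1) of single genes, as points, in the 6 roles of the 39 replication genes (left of the line) and in 4 other lists (right), 1 panel per compound; bars are list medians and the dashed line the median of all tested genes. The helicase and licensing medians lie between -1.76 and -2.66, the RPA medians between -0.81 and -0.92, and the mitosis medians between -1.56 and -2.80.

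Among the genes outside the 39 whose pattern over the 8 group means was most like the mean of the 39 were CHAF1A, PIGU, LOC93622 and NEIL3, each with a Pearson correlation of 0.997 across 8 groups that share 1 hour or 1 treatment. CHAF1A had 41.4 and 31.5 TPM in DMSO at 48 h, 8.45 and 11.4 with 5G6, 3.74 and 10.4 with 6D7 and 4.84 and 7.65 with 7F8. NEIL3, a DNA glycosylase, had 32.3 and 28.5, 3.73 and 7.04, 1.05 and 6.97 and 1.59 and 4.94 in the same order. LOC93622 had 24.7 and 22.6, 17.5 and 18.2, 15.2 and 18.2 and 14.1 and 19.3, a small change with the same order, since a correlation ignores size.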

How the data were processed

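PolyA RNA of A549 cells was made into NEBNext Ultra libraries from 1 µg of RNA, per the labels' protocols. The submitters' processing notes name STAR 2.6.1a, featureCounts 1.6.3, StringTie 2.0 and GRCh38 without their roles, and the gene annotation and strandedness are not given in the sources used here. The deposited TPM values, 1 table per library, have the columns StringTie writes. The deposited FPKM values served as an alternative and, with the deposited coverage signal (mean read coverage of a gene, per the file headers), to estimate aligned bases. No read counts were used, and arithmetic on TPM gives no counting interval.

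TPM was added per gene name, mitochondrial genes were dropped and each library was rescaled to the same sum. Genes reaching a TPM of 1 in 2 or more libraries entered a model of log2(TPM + 1) in limma 3.58.1 (R 4.3.3). It had 8 group means, 16 libraries and 8 residual degrees of freedom, and variances were moderated along a mean-variance trend (prior degrees of freedom 3.80 at the median). All tests are two-sided, with Benjamini-Hochberg adjustment over all 15958 genes of a comparison and a threshold of 0.05. Such fold changes understate the change of low genes. The series description calls the replicates biological without naming separate cultures, so the p-values cover only the variation among the libraries at hand, which may be technical. The alternatives tried were TPM with mitochondrial genes kept, FPKM, median-of-ratios scaling, a pseudocount of 0.1, no filter on low values, variances without the trend, 1 hour alone, a replicate block and each library left out in turn. The procedure was tested on simulated data.

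The members and the other gene lists were chosen with earlier results of these data known. Values in all libraries are given for the 2 members of each role with the smallest p at 48 h with 7F8 and for the one with the smallest change, and a few more (CDC45, MCM5, MCM2, POLA1, RPA1 and TK1) were chosen after their values were seen. From other lists the 3 called genes with the smallest p per comparison were eligible, with E2F1, CDKN1A, RRM2B, CCNE2, MKI67 and RB1 and 1 more gene that is not reported here. Python 3.11.15 (numpy 2.4.6, pandas 2.3.3, matplotlib 3.10.9) was used for tables and plots.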

Additional observations from a re-analysis of the deposited data

Results flagged for a closer look

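The libraries of POLD2 with 5G6 lay on opposite sides of DMSO at the 2 hours. At 4 h both 5G6 libraries lay above both DMSO libraries (149 and 156 against 129 and 143 TPM), a log2 fold change of 0.159 that was not called (95% interval -0.17 to 0.49, limma adjusted p 1). The median of all genes in that comparison was 0.11, and with median-of-ratios scaling the change of POLD2 was 0.02. At 48 h both lay below (94.8 and 95.4 against 166 and 141 TPM), a log2 fold change of -0.679. The difference between the hours had an unadjusted p of 0.00226 and an adjusted p of 0.46 in limma, so it did not pass the correction over all genes.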

How the results depend on the processing

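With 2 libraries per group the number of calls moved. Leaving out 1 library could not reverse a member at 48 h. In all 39, both compound libraries lay below both DMSO libraries with each compound. Variances without the trend, 1 hour alone, no filter and a replicate block leave the fold change as it is. Leaving out a library outside a comparison does so too, and most of the 16 libraries lie outside any 1 comparison. That 0 reversed below was thus in large part fixed in advance. The number below that kept their side of the threshold was raised by the same alternatives, so it overstates how steady the calls were. Leaving out a library of the comparison itself moved the calls far more, as given above. Over 2808 alternatives of the 117 tests of a member against DMSO at 48 h, 2356 kept their side of the threshold, 417 lost the call, 35 gained it and 0 reversed. Members called at 48 h with the libraries of that hour alone were 0 with 5G6, 0 with 6D7 and 20 with 7F8. Leaving out 1 library gave 0 to 32 (5G6), 0 to 36 (6D7) and 9 to 39 (7F8). With mitochondrial genes kept in TPM the counts were 21, 24 and 35, and 3 members were called higher with 6D7 than with 7F8, against 0 otherwise and 0 to 1 when 1 library was left out. For the effect at 48 h minus that at 4 h, leaving out 1 library gave 0 to 17 members with 6D7 and 0 to 1 with 7F8. Same-numbered libraries deviated together by correlations of 0.05 to 0.59 over 28 pairs of groups, 25 of them above 0.1 and 0 below 0. Same-numbered libraries thus tended to deviate together, but the numbers were treated as pairs only if every correlation passed 0.1, and 3 did not. Those 3 (0.058, 0.088 and 0.054) set 6D7 at 48 h against a group at 4 h. Within 1 hour, where the comparisons with DMSO lie, the correlations ran from 0.36 to 0.59. The rule therefore set aside a shared deviation that was present within each hour. The main fit therefore leaves such shared deviation in its residual spread, also for genes that were not called. A replicate block gave 37, 39 and 38 members called at 48 h, and 3 for the effect difference of 7F8, where 0 were called without it. The share of all genes called under each of these alternatives is not given here. A rise or fall in the counts of members may therefore be general. The cause of these movements was not tested, beyond the fewer samples. Of the alternatives of a median over the members, 368 moved by less than the replicate SD of 0.34 and 12 by more. Many of these alternatives leave the fold changes behind a median as they are, so the 368 were in large part fixed in advance. Several medians at 4 h and between compounds were smaller than 0.34, so a change of sign could count among the 368.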
